A study of Mus musculus with 24 samples.

Results

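The data compared RNA-seq libraries of alveolar macrophages that had been sorted as Siglec F-low or Siglec F-high from the lungs of young C57BL/6J mice (8 to 12 weeks of age) given asbestos. The comparison took the 4 Siglec F-low and the 4 Siglec F-high libraries of this condition, 8 of the 24 libraries of the study, and every gene with enough counts to test, 13629 of 43430 gene IDs. The other groups, each of 4 libraries, were young naive and old naive Siglec F-high cells, and old asbestos Siglec F-high and Siglec F-low cells from mice over 18 months of age. All mice were of the same strain, the labels of these samples named no transgene or drug, and cells of the asbestos groups were taken 28 days after exposure, per the series text; the dose and route of asbestos are not given in the sources used here. No naive Siglec F-low group was among the samples, so naive levels below are those of Siglec F-high cells. The labels did not say whether the libraries came from separate mice or whether both sorts came from the same mice, and p-values here measure only the spread between these libraries.

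Alveolar macrophages live in the airspace, where they clear surfactant and inhaled particles. Siglec F, a sialic acid-binding lectin, is carried at high level by the long-lived resident cells, while macrophages that arise from blood monocytes during lung injury carry little of it at first and are known for making growth factors and matrix-remodelling enzymes in fibrosis. The series text spoke of resident and monocyte-derived cells, but the labels named the sorts by Siglec F alone, and those names are kept here.

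Siglec F-high replicate 3 was a poor library and was left out of all values below unless it is named. It held 11889517 counts over 12528 detected genes, against 14581168 to 18124526 counts and 17146 to 18514 genes in the other 7 libraries, and its log2 CPM (counts scaled to a common library size) correlated with its group at 0.872, against 0.988 to 0.992 for the rest. One old asbestos Siglec F-high library, with 54.1% of its counts on genes related to ribosomal RNA, was left out as well, so 22 libraries entered the fit. Markers of macrophages were high in both sorts: 12 general markers summed to 30812 to 34086 CPM in Siglec F-high and to 35582 to 43023 CPM in Siglec F-low libraries. Lyz2 alone held 2.25% to 2.5% of the counts of the Siglec F-high libraries, most of their sum. In the test described below, 2 of the 12 were called higher and 2 lower.

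Siglecf itself (ENSMUSG00000039013, chr7:43351341-43359531, plus strand on GRCm38), the gene of the sort marker, stood at 480.2, 505 and 461 CPM in Siglec F-high replicates 1, 2 and 4 and at 309, 262, 250.1 and 296 CPM in Siglec F-low replicates 1 to 4. The poor library held 333 CPM, and young naive cells 566 ± 61.5 (SD, n = 4). All 4 Siglec F-low libraries lay below every Siglec F-high library, the poor one included. The log2 fold change, Siglec F-low over Siglec F-high, was -0.79 ± 0.10 (SE) with an adjusted p of 1.77e-05 by edgeR's quasi-likelihood test, a 1.72-fold lower level. Siglece, which encodes another inhibitory lectin of this family, was lower too (-0.80 ± 0.14, adjusted p = 3.29e-04). These were the 2 called genes among 8 tested members of the Siglec family (12.0% of all genes were called in this comparison).

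Of the 13629 genes tested, 1638 (12.0%) passed an adjusted p of 0.05, 1011 of them (7.42%) higher and 627 (4.60%) lower in Siglec F-low cells. Shares of gene lists called below are to be read beside these. The higher genes moved further: 379 rose by more than a log2 fold change of 1 and 179 by more than 2, while 69 fell by more than 1 and 8 by more than 2. The CPM of 1564 of the 1638 did not overlap between the 4 Siglec F-low and the 3 Siglec F-high libraries, where 23.9% of all genes tested did not overlap. With the poor library included, 910 of the 1638 did not overlap, against 12.3% of all genes tested. With all 24 libraries in the fit, 672 of 13467 genes (4.99%) were called, 459 higher (3.41%) and 213 lower (1.58%), and 617 genes passed with the same sign whether 22 or 24 libraries were used. The median SE was 0.14 with 22 libraries and 0.24 with 24. Without Siglec F-high replicate 2 the count was 862 (591 higher and 271 lower), and without replicate 4 it was 986 (651 and 335). Without Siglec F-low replicate 1 or 2 the lower genes numbered 408 and 385. The split by direction depended on scaling: with plain library totals in place of TMM factors, 726 of 2156 calls were higher (33.7%, against 61.7%), and the median of all genes shifted by -0.10 on the log2 scale from -0.001. Directions below are relative to the TMM scale. In bulk samples such as these, fewer cells of a type and less RNA per cell cannot be told apart.

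**Figure D1:**
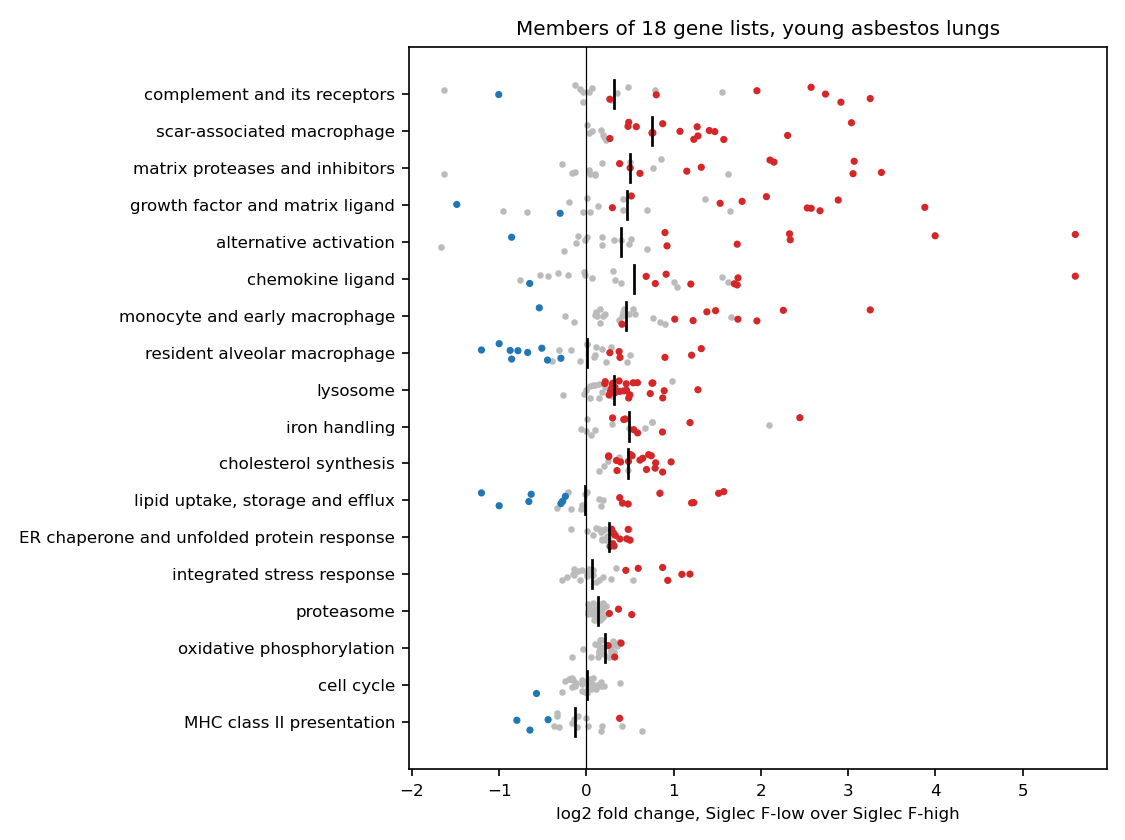
Log2 fold change of Siglec F-low over Siglec F-high for the tested members of 18 gene lists. Each point is a gene, red where called higher, blue where called lower and grey where not called, and the black bar is the median of the list; a gene may sit in several lists. The median was 0.75 for the scar-associated macrophage list and 0.01 for the cell cycle list.

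Among genes higher in both fits and without overlap in all 8 libraries, those with the smallest p included Arg1, Ecm1, C1qb, C3ar1, C1qa, Mfge8, Slamf7, Mmp14, Csf1, Gas7 and Adam8. Slamf7 (ENSMUSG00000038179, chr1:171632403-171653035, minus strand), a receptor of the signalling lymphocytic activation family, had 4.13, 5.11 and 4.74 CPM in Siglec F-high and 32.9, 38.5, 35.3 and 34.2 CPM in Siglec F-low libraries (2.92 ± 0.22, adjusted p = 8.93e-09). Gas7, a protein that binds actin and membranes, rose by 2.5 ± 0.21 (adjusted p = 3.47e-08).

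Several of the largest differences were in genes nearly silent in Siglec F-high cells. Rbp4, which encodes a carrier of retinol, had 0.792, 0.527 and 0.263 CPM in Siglec F-high and 19.4, 29.4, 20.3 and 8.56 CPM in Siglec F-low libraries. Npy, a neuropeptide precursor, had 1.02, 0.633 and 0.329 CPM in Siglec F-high and 15.8, 22.9, 13.7 and 14.6 CPM in Siglec F-low libraries. Both were called, at 5.16 ± 0.59 and 4.62 ± 0.43 on the log2 scale, and both had naive means below 1 CPM (0.236 ± 0.287 and 0 CPM). Sel1l3 went from 0.0565, 0.158 and 0 CPM to 7.8, 11.2, 10.4 and 8.38 CPM, and Bex1 from 0.339, 0.211 and 0 CPM to 7.02, 12.9, 6.51 and 7.29 CPM. For this pair the levels are given without a fold, because the Siglec F-high libraries held only a few counts.

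Arginase 1 was the abundant end of these differences. Arg1 (ENSMUSG00000019987, chr10:24915221-24927484, minus strand) turns arginine into ornithine, the precursor of proline and polyamines, and is the classic transcript of alternatively activated mouse macrophages. It stood at 15.8, 8.44 and 5.8 CPM in Siglec F-high and at 144, 224, 139 and 138 CPM in Siglec F-low libraries, with 7.62 CPM in the poor library and 0.619 ± 0.133 CPM in naive cells. Every Siglec F-low library was above every Siglec F-high library, and replicate 2 was the highest. This lack of overlap was a condition of the list of smallest p in which Arg1 was named. The log2 fold change was 4.0 ± 0.25 (adjusted p = 5.90e-10).

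Of 21 tested genes on the alternative activation list, 7 were called higher and 1 lower (with all 24 libraries 5 and 1). Those of the 22-library fit were 38.1% of the list, against 12.0% of all genes. The median log2 fold change was 0.40, against -0.001 over all genes. Chil3, the abundant secreted chitinase-like protein Ym1, went from 22983, 19349 and 20063 CPM to 43785, 44267, 34581 and 32654 CPM (0.90 ± 0.13, adjusted p = 3.59e-05) and was the most abundant transcript of each Siglec F-low library. Its reads may be shared with close paralogs. Ccl24, a chemokine for eosinophils, was at 0.283, 0.158 and 0.198 CPM in Siglec F-high libraries. In Siglec F-low libraries it was at 2.98, 34.5, 3.44 and 1.63 CPM, so its call (5.6 ± 1.05, adjusted p = 7.95e-04) depended on replicate 2 for its size: without that library the log2 fold change was 3.61. Retnla, which encodes the secreted protein Fizz1, was at 7.97, 8.54 and 4.15 CPM in Siglec F-high and 25.9, 80.2, 17.6 and 16.6 CPM in Siglec F-low libraries, again highest in replicate 2, and its log2 fold change of 2.34 ± 0.43 was 1.52 without that library. The poor library held 67.1 CPM of Retnla, and with all 24 libraries its adjusted p was 0.545, against 7.71e-04 with 22. The gene called lower was Flt1, a receptor for vascular endothelial growth factor (-0.86 ± 0.20, adjusted p = 0.00528), while the mannose receptor Mrc1 was not called, with 2396 ± 113 CPM (SD, n = 3) in Siglec F-high and 2398 ± 148 CPM (n = 4) in Siglec F-low libraries (0.00 ± 0.07, adjusted p = 0.995).

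**Figure D2:**
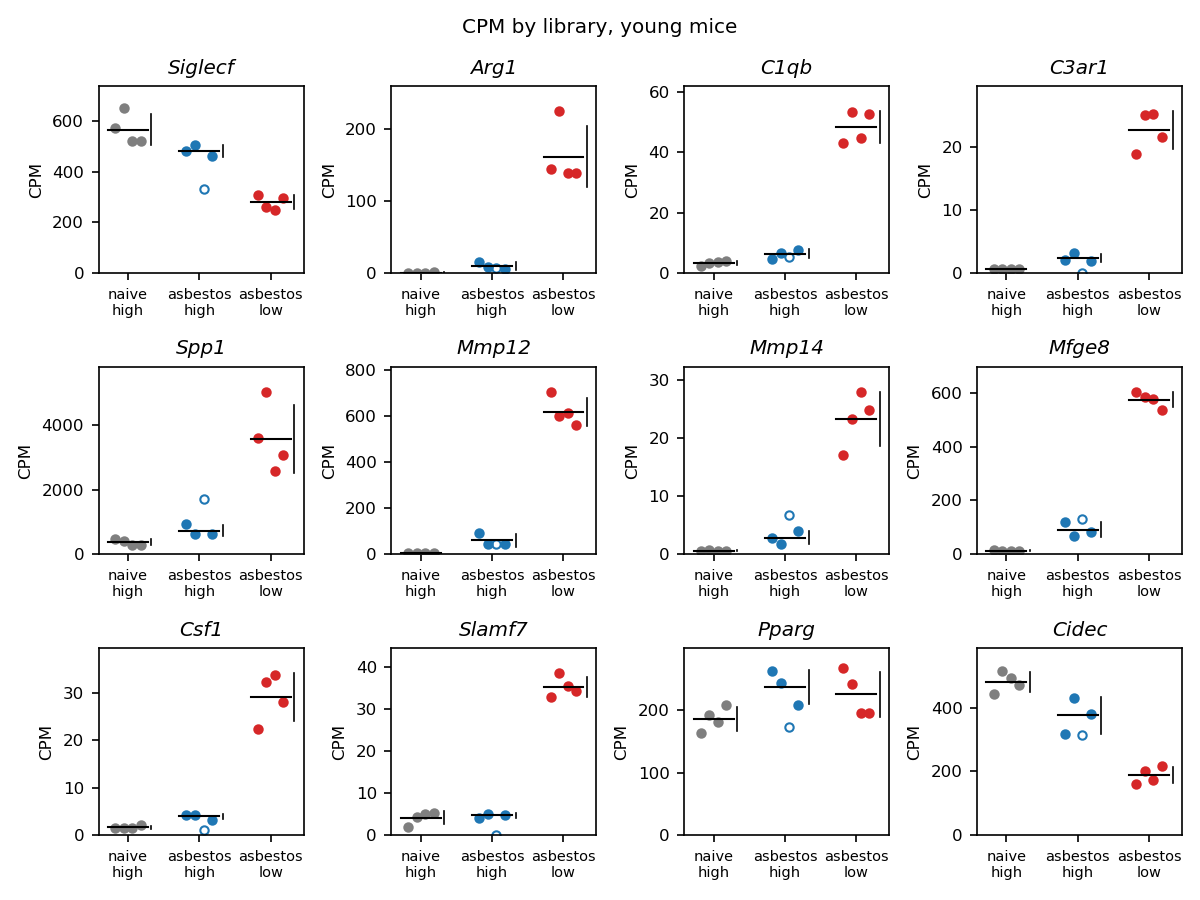
CPM of 12 genes in each young library: Siglec F-high cells of naive lungs (grey) and of asbestos lungs (blue), and Siglec F-low cells of asbestos lungs (red). Filled points are libraries in the fit, the open point is the poor library, and lines give the mean and SD of the filled points. Among filled points Pparg overlaps between the asbestos sorts and the other 11 genes do not, where 23.9% of all genes tested did not. For Siglecf, Arg1, C1qb, C3ar1, Mmp14, Mfge8, Csf1 and Slamf7 this was a condition of the lists of smallest p in which they were named.

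Complement genes held some of the firmest differences. C1q, the recognition molecule of the classical pathway, is built from 3 chains whose genes lie side by side on chromosome 4: C1qa (chr4:136895917-136898803, minus strand), C1qb (chr4:136880129-136886187, minus strand) and C1qc (chr4:136889804-136893065, minus strand). C1qa had 4.13, 7.7 and 6.19 CPM in Siglec F-high and 34.7, 41.8, 39.5 and 44.8 CPM in Siglec F-low libraries. C1qb had 4.75, 6.8 and 7.77 CPM and 43, 53.4, 44.9 and 52.7 CPM. C1qc had 2.6, 5.8 and 5.2 CPM and 30.4, 26.9, 24 and 26.9 CPM in the same order. The log2 fold changes of the 3 chains were 2.74 ± 0.20, 2.92 ± 0.19 and 2.58 ± 0.22 (adjusted p = 5.56e-09, 1.21e-09 and 4.13e-08). No Siglec F-high library, the poor one included, reached the lowest Siglec F-low value of any chain. For C1qa and C1qb this was a condition of the list of smallest p in which they were named. Naive cells held 4.23 ± 1.2, 3.37 ± 0.736 and 3.3 ± 0.718 CPM of C1qa, C1qb and C1qc.

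The receptors for the small complement fragments went in opposite directions. C3ar1, the receptor for C3a, had 2.09, 3.11 and 1.84 CPM in Siglec F-high and 18.9, 25, 25.2 and 21.6 CPM in Siglec F-low libraries (3.25 ± 0.22, adjusted p = 1.82e-09). C5ar1, the receptor for C5a, had 316, 382 and 351 CPM in Siglec F-high and 164, 186, 174 and 173 CPM in Siglec F-low libraries (-1.01 ± 0.21, adjusted p = 0.00251). The naive level of C5ar1 was higher still, at 553 ± 31.3 CPM. Itgam, the alpha chain of complement receptor 3 (CD11b), rose from 14, 10.1 and 9.42 CPM to 43.3, 33.1, 49.4 and 47.7 CPM (1.95 ± 0.19, adjusted p = 3.74e-07). In all, 7 of 20 complement genes were called higher and C5ar1 alone lower, with 6 and 1 when all 24 libraries were used. The calls with 22 libraries were 40.0% of the list, against 12.0% of all genes.

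The scar-associated macrophage list, made of genes reported in macrophages of fibrotic lung and liver, had 17 of 24 tested members called higher (70.8%) and none lower, with a median of 0.75. With all 24 libraries 10 were called, all higher. Spp1 (chr5:104435118-104441050, plus strand), which encodes the secreted matrix protein osteopontin, stood at 931, 619.9 and 622 CPM in Siglec F-high and at 3610.2, 5049, 2588 and 3079 CPM in Siglec F-low libraries. The poor library held 1714 CPM, between the other Siglec F-high libraries and the Siglec F-low libraries. The log2 fold change of Spp1 was 2.31 ± 0.22 (adjusted p = 3.34e-07) with 22 libraries and 1.89 (adjusted p = 2.56e-04) with all 24.

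Trem2, a lipid-sensing receptor, had 85.6, 74.2 and 75.7 CPM in Siglec F-high and 206, 232, 203 and 193 CPM in Siglec F-low libraries (1.41 ± 0.15, adjusted p = 9.25e-07). Apoe, which carries cholesterol out of macrophages, was almost level across the Siglec F-high libraries at 112, 114 and 119 CPM and was at 246, 354, 373 and 397 CPM in Siglec F-low (1.57 ± 0.18, adjusted p = 2.58e-06). Naive cells held 110.5 ± 9.51 CPM of Apoe. Gpnmb, a membrane glycoprotein of late endosomes, rose from 839 ± 91.5 to 2022 ± 64.7 CPM (1.27 ± 0.24, adjusted p = 7.86e-04). The tetraspanin Cd63 (1.47 ± 0.21, adjusted p = 4.38e-05) and the fatty acid-binding protein Fabp5 (1.23 ± 0.17, adjusted p = 2.51e-05) rose as well.

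Of 23 tested matrix proteases and inhibitors, 10 were called higher and none lower (7 and none with all 24 libraries), with a median of 0.50. The 10 were 43.5% of the list, against 7.42% of all genes called higher. Mmp12 (chr9:7344381-7369499, plus strand), macrophage elastase, was at 92.2, 44.1 and 42 CPM in Siglec F-high and at 705, 601, 613 and 560.5 CPM in Siglec F-low libraries, and at 5.14 ± 1.19 CPM in naive cells. Its levels therefore stood in 3 separate steps with no overlap between the groups, and the log2 fold change between the asbestos sorts was 3.38 ± 0.58 (adjusted p = 3.46e-04). Mmp14, a membrane-anchored collagenase that activates other proteases, went from 2.83, 1.69 and 4.02 CPM to 17, 23.3, 28 and 24.9 CPM (3.06 ± 0.25, adjusted p = 2.62e-08). Adam8, a membrane protease of leukocytes, went from 11.5, 8.96 and 9.68 CPM to 33.9, 50.8, 41.3 and 46.9 CPM (2.1 ± 0.18, adjusted p = 3.47e-08). Ctsk, a collagen-cleaving cathepsin, and Mmp19 rose by 1.32 ± 0.19 and 1.15 ± 0.16. Mmp13, a collagenase, was called at low levels, 0.226, 0.316 and 0.329 CPM against 3.33, 1.45, 2.06 and 3.13 CPM (3.07 ± 0.65, adjusted p = 0.00264).

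Of the 5 protease inhibitors in the list, 2 were called higher, 1 of them with all 24 libraries, and none lower. Timp2, a tissue inhibitor of metalloproteinases, went from 128, 104 and 128 CPM to 169, 196, 178 and 190.3 CPM (0.61 ± 0.11, adjusted p = 4.22e-04). Timp1 was at 1.41, 1.37 and 1.19 CPM against 6.81, 6.23, 4.44 and 6.21 CPM (2.15 ± 0.39, adjusted p = 5.75e-04), but the poor library held 10.4 CPM, and with all 24 libraries Timp1 was not called (adjusted p = 0.430). Timp3 and Serpinb2 were under 1 CPM on average in both sorts and not called.

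The AP-1 site TGANTCA, searched on both strands, was in the 250 bases before a RefSeq gene start (GRCm38.p6) of 4 of the 16 matrix genes with a window (25%), against 7.82% of all 27025 genes with one and 5.48% of the 10082 tested genes with one. Of these 4, Mmp12 and Mmp13 were called. Their windows are shown because both proteases were called higher, read 5′ to 3′ on the gene's own strand with the matching bases in capitals (Mmp12 at chr9:7347124-7347373, plus strand, the second of its starts, and Mmp13 at chr9:7272264-7272513, plus strand).
Mmp12: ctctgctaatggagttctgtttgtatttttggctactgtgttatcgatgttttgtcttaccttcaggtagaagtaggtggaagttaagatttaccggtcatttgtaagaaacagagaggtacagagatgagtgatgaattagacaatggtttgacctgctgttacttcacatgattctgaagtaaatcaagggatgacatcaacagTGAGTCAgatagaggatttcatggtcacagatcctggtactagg
Mmp13: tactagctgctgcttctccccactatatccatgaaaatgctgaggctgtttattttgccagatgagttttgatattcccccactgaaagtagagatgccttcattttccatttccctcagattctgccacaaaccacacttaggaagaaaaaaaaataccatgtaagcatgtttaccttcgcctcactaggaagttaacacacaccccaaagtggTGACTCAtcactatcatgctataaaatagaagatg
The match lay 44 bases before the start in Mmp12 and 35 bases before it in Mmp13. A match of letters does not show that a factor binds there, and neighbouring Mmp genes share the chromosome 9 cluster.

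Secreted growth factors and matrix ligands had 10 of 24 tested ligands higher and 2 lower (7 and 1 with all 24 libraries, 7 and none without Siglec F-high replicate 2) and a median of 0.47. Csf1, the growth factor on which macrophages depend, was at 4.24, 4.27 and 3.23 CPM in Siglec F-high and at 22.4, 32.2, 33.8 and 28 CPM in Siglec F-low libraries (2.89 ± 0.24, adjusted p = 2.65e-08), while its receptor Csf1r was not called, at 406 ± 33.9 and 434 ± 16.4 CPM (0.10 ± 0.07, adjusted p = 0.455). Pdgfa, a mitogen for fibroblasts, went from 0.622, 0.738 and 0.329 CPM to 8.51, 10.3, 9.38 and 5.97 CPM (3.88 ± 0.36, adjusted p = 1.91e-07). Mfge8, a bridge between dying cells and integrins on the macrophage, went from 120.1, 66.4 and 83.3 CPM to 602, 585, 577 and 536 CPM (2.68 ± 0.20, adjusted p = 5.56e-09).

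Ecm1, a secreted matrix glycoprotein, was at 24.9, 24.7 and 26.7 CPM in Siglec F-high and 98.7, 101, 107 and 118 CPM in Siglec F-low libraries (2.06 ± 0.14, adjusted p = 1.15e-09). Igf1, insulin-like growth factor 1, rose by 1.53 ± 0.23 from 68.2 ± 27.1 to 197 ± 33 CPM, and Hbegf, a ligand of the epidermal growth factor receptor, by 2.53 ± 0.49 at lower levels (3.28 without Siglec F-high replicate 1). Tgfb1, the best known profibrotic cytokine, was at 438, 407 and 436 CPM and 421, 409, 457 and 428 CPM, with values interleaved between the sorts (0.01 ± 0.06, adjusted p = 0.968). The 2 lower ligands were Tgfb2 (-1.49 ± 0.42, adjusted p = 0.0212) and Pdgfc (-0.30 ± 0.09, adjusted p = 0.0327). Neither call was firm. Tgfb2 lost it without Siglec F-high replicate 2 (adjusted p = 0.0810) or 4 (0.0525) and without Siglec F-low replicate 2 (0.0651) or 3 (0.0573). Pdgfc lost it without any of Siglec F-high replicates 1, 2 and 4 (adjusted p = 0.104, 0.0944 and 0.102) or Siglec F-low replicates 1 and 2 (0.0880 and 0.0963), and with all 24 libraries (0.800).

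Among 24 chemokine ligands 8 were called higher and 1 lower (4 and none with all 24 libraries, 5 and 2 without Siglec F-high replicate 4, 8 and 3 with plain library totals). In the 22-library fit 37.5% of them were called, against 12.0% of all genes. Cxcl16, a membrane-bound chemokine and scavenger of oxidised lipids, went from 11.5, 8.96 and 11.5 CPM to 33.5, 36.8, 32.1 and 35.6 CPM (1.7 ± 0.15, adjusted p = 4.58e-08). Ccl9 went from 129, 90.8 and 75.7 CPM to 374, 363, 311 and 267 CPM (1.74 ± 0.30, adjusted p = 3.69e-04). The lower one was Cx3cl1, fractalkine, at 48, 55.2 and 57.2 CPM against 34.8, 31.3, 35.1 and 34.9 CPM (-0.65 ± 0.13, adjusted p = 0.00141). The poor library held 30.5 CPM of it, and with all 24 libraries its adjusted p was 0.0997.

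Markers of resident alveolar macrophages did not move in 1 direction. Of 29 tested, 6 were called higher and 9 lower, with a median of 0.00 (2 and 9 with all 24 libraries, 5 and 12 with plain library totals, 4 and 7 without Siglec F-high replicate 2). With 22 libraries 51.7% of the markers were called, against 12.0% of all genes. On the lower side, Cidec, a lipid-droplet protein, went from 316, 431 and 382 CPM to 162, 200.3, 173 and 217 CPM (-1.0 ± 0.17, adjusted p = 2.65e-04). Fabp1, a fatty acid-binding protein, went from 78.9, 86.8 and 64 CPM to 39.2, 33.4, 32.7 and 27.9 CPM (-1.2 ± 0.24, adjusted p = 0.00152). Ear1, a ribonuclease of the eosinophil-associated family whose reads may be shared with its paralogs, was lower by the same test (-0.88 ± 0.20, adjusted p = 0.00402). For these 3 genes, as for Siglecf, the naive mean was above the means of both sorts (482 ± 31, 157 ± 36.7 and 456 ± 108 CPM).

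On the higher side stood Chil3 and Ctsk, already given, with Fabp4 and Atp6v0d2. Fabp4, a fatty acid-binding protein induced by PPAR gamma, was at 155, 109 and 83.4 CPM and 347, 305, 227 and 188 CPM in the 2 sorts, but at 550.2 CPM in the poor library, and its call (1.21 ± 0.27, adjusted p = 0.00402) was lost with all 24 libraries (adjusted p = 0.762). Atp6v0d2, a proton pump subunit, was called at 0.37 ± 0.09 (adjusted p = 0.00679) and missed the threshold with all 24 (adjusted p = 0.0592). Pparg, the master regulator of resident alveolar macrophages, was at 262, 243 and 208 CPM in Siglec F-high and 267, 242, 196 and 195 CPM in Siglec F-low libraries and overlapped (-0.08 ± 0.10, adjusted p = 0.683). Marco and Car4 were not called either (0.28 ± 0.45 and 0.46 ± 0.24, adjusted p = 0.756 and 0.237).

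**Figure D3:**
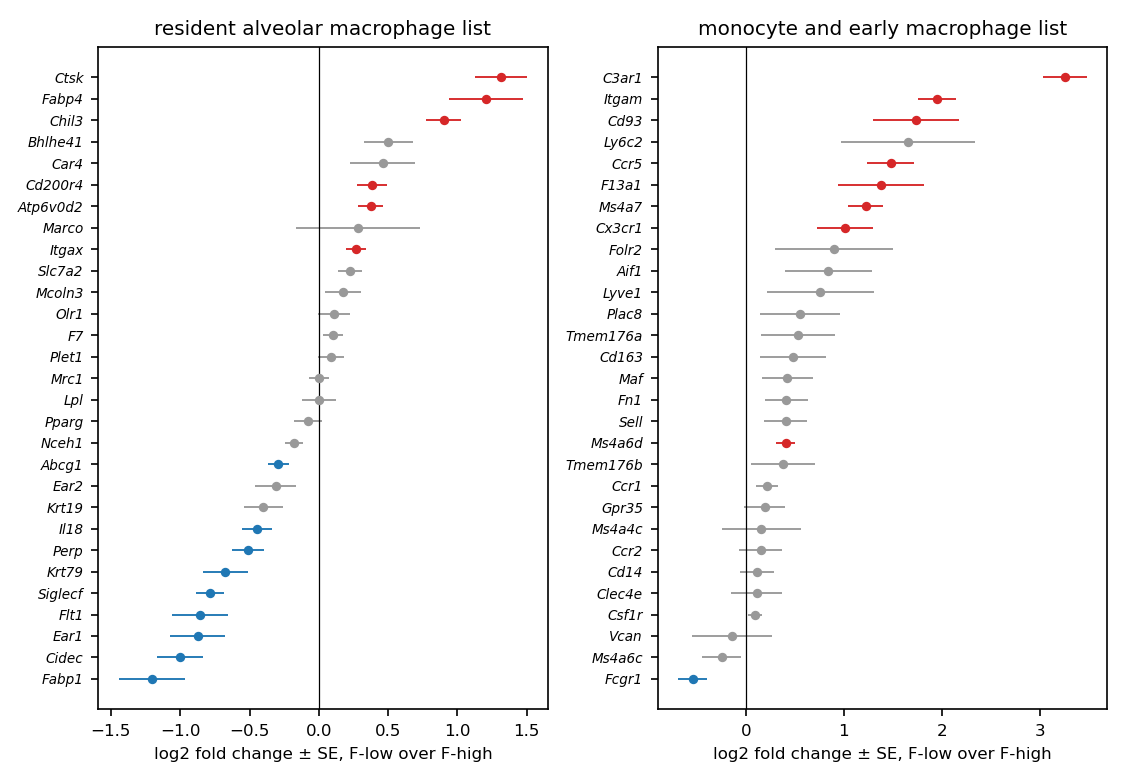
Log2 fold change of Siglec F-low over Siglec F-high with its SE for 29 resident alveolar macrophage markers and 29 of the 30 monocyte and early macrophage markers. Bars are SE. Red marks genes called higher, blue genes called lower and grey genes not called; Fabp1 was the lowest resident marker at -1.2 and C3ar1 the highest monocyte marker at 3.25.

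Of 30 markers of monocytes and early macrophages, 9 were called higher and 1 lower, with a median of 0.45 (5 and none with all 24 libraries, with none lower without Siglec F-high replicate 2). The calls with 22 libraries were 33.3% of the list, against 12.0% of all genes. Ms4a7, a tetraspan membrane protein, went from 7.75, 7.33 and 5.93 CPM to 16.4, 21, 11.9 and 16.2 CPM (1.22 ± 0.18, adjusted p = 7.44e-05), though the poor library held 27.2 CPM and the call was lost with all 24 (adjusted p = 0.432). The genes that define the blood monocyte itself were low and not called: Ly6c2 was under 1 CPM in every library, and Ccr2 was at 8.77, 15.1 and 13 CPM and 9.65, 14.1, 13.3 and 17.5 CPM (0.15 ± 0.22, adjusted p = 0.727). Cx3cr1, a receptor of patrolling monocytes and their progeny, was called at low levels, 1.36, 2.58 and 1.65 CPM against 3.48, 2.9, 3.82 and 4.94 CPM (1.01 ± 0.28, adjusted p = 0.0207). That call was lost without Siglec F-high replicate 1 (adjusted p = 0.0988) or 4 (0.0936), without Siglec F-low replicate 4 (0.0609), and with all 24 libraries (0.338). The lower member, the high-affinity antibody receptor Fcgr1 (-0.54 ± 0.15, adjusted p = 0.0196), lost its call without Siglec F-high replicate 2 (0.0671) or 4 (0.0739), without Siglec F-low replicate 1 (0.0732), and with all 24 (0.255).

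Lysosomal genes differed by small amounts. Of 40 tested, 26 were called higher (65.0%) and none lower, with a median log2 fold change of 0.31. The count was 8 with all 24 libraries and 17 without Siglec F-high replicate 2 or without replicate 4, and with plain library totals it was 20 higher and 1 lower. Ctsb, a cathepsin, went from 2129, 1845 and 1882 CPM to 3679.8, 3718, 3445 and 3467 CPM (0.87 ± 0.09, adjusted p = 6.18e-07), and Ctsl, another, from 399, 293 and 315 CPM to 871, 897, 721 and 769 CPM (1.28 ± 0.13, adjusted p = 6.02e-07). Gla, which removes galactose from glycolipids, went from 95.9, 76.5 and 75 CPM to 159.8, 161, 147 and 144 CPM (0.89 ± 0.09, adjusted p = 7.25e-07). Psap, the precursor of the saposins that present lipids to such enzymes, rose by 0.73 ± 0.10 (adjusted p = 2.79e-05). Ctsd, the major aspartic protease, was at 11328, 9691 and 9458 CPM and 18262, 18029.8, 16200.5 and 15883 CPM (0.75 ± 0.11, adjusted p = 5.22e-05), with 22146 CPM in the poor library. With all 24 libraries its adjusted p was 0.366. The transcripts of the regulators of lysosomal genes were not called: the log2 fold change of Tfeb was 0.14 ± 0.11, of Tfe3 -0.00 ± 0.07 and of Mitf -0.27 ± 0.12 (adjusted p = 0.461, 0.991 and 0.155).

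The palindrome TCACGTGA, the core of the element these factors bind, was in the 250 bases before the start of 5 of the 30 lysosomal genes with a window (16.7%), against 0.907% of all genes and 1.77% of tested genes. The list was chosen for a role these factors regulate, so its share of matches does not bear on the sorts. All 5 matching genes (Atp6v1a, Ctsa, Ctsd, Gla and Mcoln1) were called higher, in a list with 26 of 40 called higher. One is shown, the stretch of the Atp6v1a window that overlaps no annotated exon (chr16:44139306-44139461, minus strand), with the palindrome in capitals.
Atp6v1a: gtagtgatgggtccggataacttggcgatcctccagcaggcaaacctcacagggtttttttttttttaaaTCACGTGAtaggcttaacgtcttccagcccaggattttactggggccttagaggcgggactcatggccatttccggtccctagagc
Atp6v1a, a subunit of the pump that acidifies the lysosome, was at 333, 275 and 297 CPM and 431, 394, 427 and 402 CPM (0.46 ± 0.11, adjusted p = 0.00613), and without Siglec F-high replicate 2 its adjusted p was 0.0558.

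Cholesterol synthesis had 17 of 24 genes called higher (70.8%), none lower and a median of 0.48. With all 24 libraries the median was 0.47 and 2 genes were called. The count was 10 without Siglec F-high replicate 2 or without replicate 4, and 11 with plain library totals. Fdps, which makes farnesyl diphosphate, went from 41.1, 30.6 and 34.8 CPM to 78.9, 74.6, 63.5 and 61.4 CPM (0.97 ± 0.14, adjusted p = 6.09e-05, and 0.0963 with all 24). Fdft1, squalene synthase, went from 29.3, 23.9 and 24.8 CPM to 50.2, 40.3, 48.3 and 41.5 CPM (0.79 ± 0.12, adjusted p = 9.12e-05, and 0.355 with all 24). Dhcr7, which catalyses a last step, went from 80.8, 67.4 and 71.4 CPM to 131, 115, 123 and 111 CPM (0.71 ± 0.10, adjusted p = 5.37e-05, and 0.0699 with all 24). The poor library was above the Siglec F-low range for Fdft1 (63.7 CPM) and far below every other library for Dhcr7 (9.37 CPM). Sc5d, a sterol desaturase, was called in both fits (0.87 ± 0.14, adjusted p = 1.68e-04, and 3.24e-04 with all 24).

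Hmgcs1, the synthase before the reductase, was at 135, 109 and 119 CPM and 189, 176, 155 and 157 CPM (0.48 ± 0.10, adjusted p = 0.00239, and 0.0813 with all 24). It was the only one of the 17 cholesterol genes with a window that held the sterol regulatory element TCACNCCAC in the 250 bases before its start (5.88%, against 1.22% of all genes and 1.19% of tested genes). The plain CCAAT box, searched on both strands, was in 16 of the 17 (94.1%, against 37.5% of all genes and 40.2% of tested genes). These genes were chosen by pathway, so neither share bears on the sorts. The Hmgcs1 window (chr13:119690101-119690350, plus strand) is printed with the sterol element in capitals.
Hmgcs1: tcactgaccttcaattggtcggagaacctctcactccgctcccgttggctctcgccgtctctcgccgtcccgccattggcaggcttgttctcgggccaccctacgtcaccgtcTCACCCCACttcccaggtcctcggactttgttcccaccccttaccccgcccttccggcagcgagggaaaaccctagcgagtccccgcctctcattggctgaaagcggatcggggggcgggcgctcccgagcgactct
It began 137 bases before the start.

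Genes of lipid uptake, storage and efflux split, 8 higher and 7 lower of 27, with a median of -0.01 (4 and 2 with all 24 libraries, 7 and 4 without Siglec F-high replicate 2 or without replicate 4, 7 and 10 with plain library totals). In the 22-library fit 55.6% of the list was called, against 12.0% of all genes. The scavenger receptors Cd36 (0.84 ± 0.13, adjusted p = 1.61e-04) and Msr1 (1.51 ± 0.27, adjusted p = 6.36e-04), which take up oxidised lipoprotein, were among the higher. Cidec and Fabp1 were among the lower, with Mylip, a ligase that degrades the lipoprotein receptor (-0.66 ± 0.12, adjusted p = 4.44e-04). Mylip was at 22.2 CPM in the poor library, against 68.8, 75.6 and 83.5 CPM in the other Siglec F-high libraries, and was not called with all 24 (adjusted p = 0.371). Nr1h3, the liver X receptor that senses oxysterols, was called higher with 22 libraries (0.48 ± 0.10, adjusted p = 0.00264) and not called with all 24 (adjusted p = 0.471).

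Iron-handling genes were called higher in 8 of 19 cases and lower in none (4 with all 24 libraries, 3 without Siglec F-high replicate 2 and 4 without replicate 4). The 8 were 42.1% of the list, against 7.42% of all genes called higher. Slc11a1, the phagosomal metal transporter Nramp1, went from 8.48, 7.8 and 7.05 CPM to 42.3, 41, 46.1 and 40.6 CPM (2.45 ± 0.23, adjusted p = 1.63e-07). Steap3, an endosomal ferrireductase, rose by 1.19 ± 0.22 (adjusted p = 7.12e-04), but was at 0 CPM in the poor library and not called with all 24 (adjusted p = 0.0728). Ftl1, the ferritin light chain, rose by 0.59 ± 0.11 (adjusted p = 8.53e-04); ferritin pseudogenes may share its reads.

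**Figure D4:**
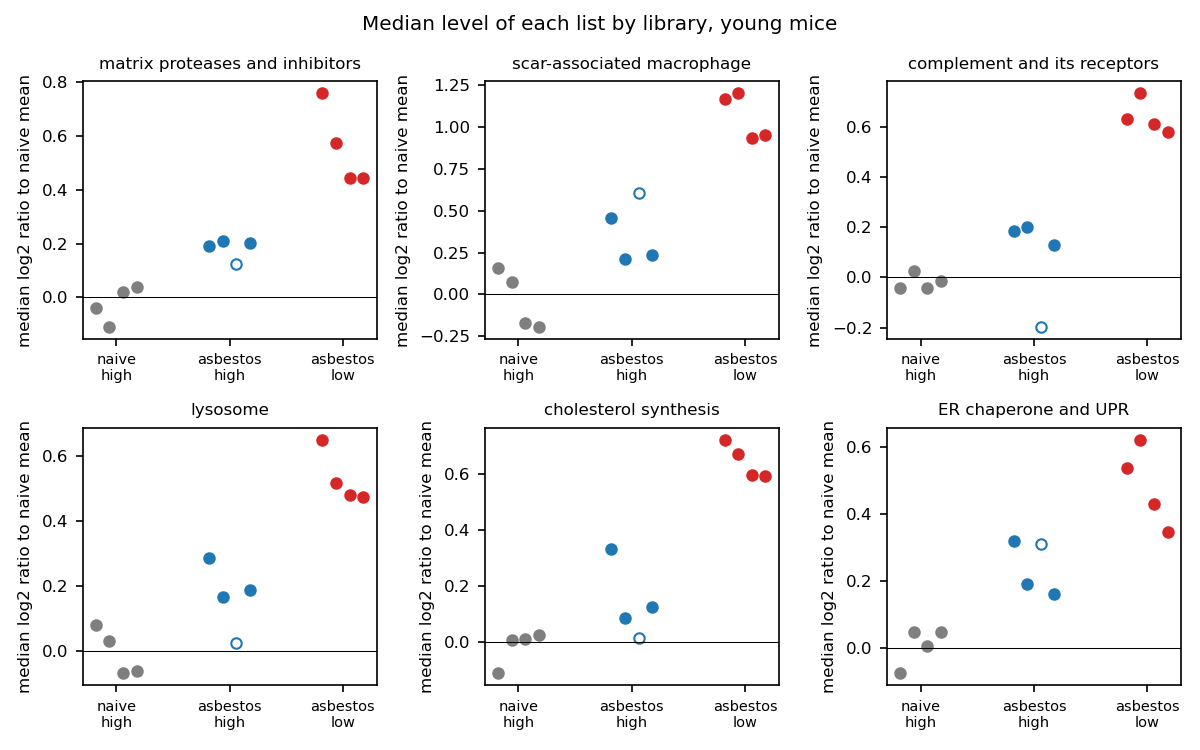
Median over the members of 6 gene lists of the log2 ratio to the mean of the young naive libraries (CPM plus a pseudocount of 1), by library. Filled points are libraries in the fit and the open point is the poor library; Siglec F-low libraries lay above the filled Siglec F-high points in all 6 panels, for example at 0.59 to 0.72 against 0.08 to 0.33 for cholesterol synthesis.

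The plot of list levels sets whole groups of genes beside naive cells. The median log2 ratio of the lysosomal members to the naive mean was 0.17 to 0.29 in Siglec F-high and 0.47 to 0.65 in Siglec F-low libraries. The scar-associated list was at 0.21 to 0.46 and 0.94 to 1.20. For all 6 lists the 7 libraries of asbestos lungs lay above the 4 naive libraries. The poor library was at 0.025 for lysosomal, 0.013 for cholesterol, 0.123 for matrix protease and -0.197 for complement genes. For the scar-associated list it was at 0.606, above the other Siglec F-high libraries and nearer to the Siglec F-low range. For the endoplasmic reticulum chaperone list it was at 0.311.

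Chaperones of the endoplasmic reticulum (ER) and other genes of its unfolded protein response were called higher in 11 of 26 cases (42.3%) and lower in none, all by small amounts, with a median of 0.26. None was called with all 24 libraries, where the median was 0.25. The count was 6 without Siglec F-high replicate 2, 5 without replicate 4, and 6 higher and 1 lower with plain library totals. Creld2, a folding factor for disulfide-rich proteins, went from 84, 73.5 and 72.5 CPM to 115, 121, 104 and 87 CPM (0.48 ± 0.11, adjusted p = 0.00438). Calr, calreticulin, went from 1394, 1248 and 1245 CPM to 1733, 1701, 1601 and 1478 CPM (0.33 ± 0.08, adjusted p = 0.00466). Sdf2l1 rose by 0.50 ± 0.12 (adjusted p = 0.00516). Hspa5, the master chaperone BiP, went from 1589, 1398 and 1316 CPM to 2055, 2180.2, 1923 and 1745 CPM (0.46 ± 0.11, adjusted p = 0.00868), with 1784 CPM in the poor library. Its adjusted p was 0.0612 without Siglec F-high replicate 4 and 0.163 with all 24 libraries.

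The ER stress element, CCAAT and CCACG with 9 bases of any kind between them, recruits ATF6 and contains the CCAAT box counted above. It was on either strand of the window in 9 of 22 ER genes (40.9%), against 0.13% of all genes and 0.159% of tested genes. Of the 9, 5 were called, beside 11 of 26 in the whole list. The list was chosen for the response this element serves, so its share of matches does not bear on the sorts. The windows of Creld2 (chr15:88819396-88819645, plus strand) and Calr (chr8:84846935-84847181, minus strand, cut short where an exon begins) show the element in capitals, on the opposite strand in both.
Creld2: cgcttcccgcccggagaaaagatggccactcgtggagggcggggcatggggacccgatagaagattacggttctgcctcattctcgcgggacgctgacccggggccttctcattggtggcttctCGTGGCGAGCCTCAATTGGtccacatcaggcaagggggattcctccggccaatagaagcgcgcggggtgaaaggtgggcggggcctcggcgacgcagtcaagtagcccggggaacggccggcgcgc
Calr: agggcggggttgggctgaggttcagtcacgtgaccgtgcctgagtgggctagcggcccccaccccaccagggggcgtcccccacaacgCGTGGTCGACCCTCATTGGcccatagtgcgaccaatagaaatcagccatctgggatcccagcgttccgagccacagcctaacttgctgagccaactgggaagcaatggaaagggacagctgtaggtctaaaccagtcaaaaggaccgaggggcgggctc
In Creld2 the element began 126 bases and in Calr 162 bases before the start.

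The study's title speaks of ISRIB, a compound that acts on the integrated stress response, in which phosphorylation of eIF2 raises translation of ATF4. Of 28 tested genes of that response, 6 were called higher and none lower (2 with all 24 libraries, 2 without Siglec F-high replicate 4, 4 and 2 with plain library totals), and the median of 0.06 turned to -0.05 with plain library totals. The 6 were 21.4% of the list, against 7.42% of all genes called higher. Atf4 was at 203, 186 and 161 CPM in Siglec F-high and 213, 189, 172 and 163 CPM in Siglec F-low libraries and overlapped (0.01 ± 0.11, adjusted p = 0.980). Ddit3, which encodes CHOP, was not called (0.53 ± 0.22, adjusted p = 0.125). Gdf15, a stress-induced secreted factor, was called (1.09 ± 0.19, adjusted p = 4.38e-04), as was Trib3, a pseudokinase target of ATF4 (0.87 ± 0.21, adjusted p = 0.00689), the latter not with all 24 libraries (adjusted p = 0.0826). Transcript levels do not measure ATF4 protein.

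Other housekeeping programmes held few calls. The proteasome had 3 of 33 genes called, all higher (none with all 24 libraries, without Siglec F-high replicate 2, without replicate 4 or without Siglec F-low replicate 1), and cytosolic heat shock 1 of 19. Oxidative phosphorylation had 3 of 30, all higher (none with all 24 libraries, without Siglec F-high replicate 2, without replicate 4 or without Siglec F-low replicate 2, but 7 without Siglec F-low replicate 3 and 5 without replicate 4). These shares were under the 12.0% of all genes called. For the proteasome and oxidative phosphorylation, with all calls higher, they were above the 7.42% of all genes called higher. The log2 fold change was positive for all 33 proteasome genes (median 0.14) and for 28 of 30 oxidative phosphorylation genes (median 0.21). These medians were -0.28 and -0.06 with all 24 libraries, and 0.03 and 0.11 with plain library totals. In the cell cycle list 1 of 30 genes was called, the nuclease gene Dna2, lower. Mki67, the proliferation marker, was at 176, 144 and 179 CPM and 165, 147, 177 and 155 CPM (-0.05 ± 0.11) and Top2a at 107 ± 12 and 110.2 ± 8.16 CPM (0.05 ± 0.10), with values that overlapped. Outside these programmes, major histocompatibility class II presentation had 1 gene higher and 3 lower of 18, or 22.2% called, above the 12.0% of all genes. None of them was called with all 24 libraries or without Siglec F-high replicate 2.

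Metabolic and lipid-mediator enzymes held further single differences. Fbp1, a gluconeogenic phosphatase, was not detected in naive cells and went from 21.8, 15 and 7.97 CPM to 96.9, 189, 80.7 and 44.5 CPM (2.77 ± 0.38, adjusted p = 4.94e-05), as part of a glycolysis and hypoxia list with 9 of 24 genes higher (4 with all 24 libraries, 6 higher and 2 lower with plain library totals). The 9 were 37.5% of that list, against 7.42% of all genes called higher. Ptgs1, cyclooxygenase 1, went from 38.5, 16.4 and 23 CPM to 80.1, 66.7, 73.4 and 61.4 CPM (1.44 ± 0.20, adjusted p = 3.56e-05). Pla2g7, which breaks down platelet-activating factor, went from 12.3, 8.33 and 7.64 CPM to 58.3, 45.5, 37.9 and 42.3 CPM (2.28 ± 0.24, adjusted p = 8.72e-07). Alox5, the first enzyme of leukotriene synthesis, went the other way, from 461, 415 and 440.4 CPM to 328, 259.8, 310.2 and 296 CPM (-0.56 ± 0.09, adjusted p = 2.20e-04), with 164 CPM in the poor library and no call with all 24 (adjusted p = 0.391). Among 22 tested genes of efferocytosis, the uptake of dying cells, 9 were higher and 1 lower (5 and none with all 24 libraries, 7 and none without Siglec F-high replicate 4, 8 and 3 with plain library totals). In the 22-library fit 45.5% of this list was called, against 12.0% of all genes. Beside Mfge8 and Trem2 the higher ones held Itgb3, an integrin chain that binds Mfge8 (1.89 ± 0.29), and Cd300lb (0.93 ± 0.19). The receptor Axl was the lower one (-0.32 ± 0.07, adjusted p = 0.00542), a call lost without Siglec F-high replicate 4 (adjusted p = 0.0627) and with all 24 libraries (0.934), while its relative Mertk was not called (0.09 ± 0.14, adjusted p = 0.764).

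Most genes lower in Siglec F-low cells differed by small amounts. By smallest p, under the same rule as the higher genes, they were Pilra, Gpr155, Siglecf, Trerf1, Cdon, Cpne5, Agap2, Dna2, Rassf5, Noct, Dtna and Ddx46. Pilra, an inhibitory receptor for sialylated ligands, was at 174, 174 and 165 CPM in Siglec F-high and 96, 87.5, 93.2 and 97.6 CPM in Siglec F-low libraries (-0.87 ± 0.10, adjusted p = 2.29e-06). Gpr155, a lysosomal cholesterol sensor, was at 106, 109 and 101 CPM and 53.8, 50.4, 50.9 and 54.2 CPM (-1.01 ± 0.12, adjusted p = 2.32e-06). Cpne5, a calcium-dependent membrane-binding protein, was at 170.3, 206 and 194 CPM and 78.4, 71.2, 86.5 and 96.2 CPM (-1.2 ± 0.17, adjusted p = 3.56e-05). For these 3 genes the poor library held 253, 65.8 and 225 CPM. That it lay above every Siglec F-low library was a condition of the rule that picked them, not a separate result. Naive means (237 ± 29, 135 ± 16.4 and 278 ± 28.8 CPM) were above the other Siglec F-high libraries. The other 8 besides Siglecf lay between -1.51 (Dtna, a dystrophin-associated protein) and -0.39 (Ddx46, a splicing helicase).

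By size, among those with a mean of at least 5 CPM in Siglec F-high cells, the largest decreases were in Itgad, Epcam, Dtna, Ppp1r9a, Klk8 and Fgf1. Itgad, the integrin chain CD11d, was at 16.9, 24 and 26.7 CPM in Siglec F-high and 4.96, 6.95, 6.44 and 6.75 CPM in Siglec F-low libraries (-1.83 ± 0.40, adjusted p = 0.00334), opposite to its relative Itgam. Epcam, an adhesion molecule of epithelium that alveolar macrophages also express, was at 68, 87.1 and 84 CPM and 21.9, 27.5, 23.4 and 32.2 CPM, with 131 ± 56 CPM in naive cells (-1.6 ± 0.30, adjusted p = 7.94e-04). Klk8, a secreted serine protease, was called at -1.36 ± 0.25 (adjusted p = 8.09e-04). Ppp1r9a (-1.5 ± 0.35, adjusted p = 0.00606) lost its call without Siglec F-high replicate 2 (0.0576). Fgf1 (-1.32 ± 0.37, adjusted p = 0.0188) lost it without Siglec F-high replicate 1 (0.0596) or 4 (0.0623) or Siglec F-low replicate 2 (0.0517). Id1, a target of BMP signalling, fell from 21.1 ± 3.87 to 11.4 ± 1.24 CPM (-0.90 ± 0.20, adjusted p = 0.00318).

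Markers of other cells the sorts could hold were compared in the same fit. None of 13 B cell markers was called, and their sum was 233 to 244 CPM in Siglec F-high and 257 to 279 CPM in Siglec F-low libraries. Of 13 T and natural killer cell markers only Il7r was called, at 7.46, 17.8 and 15 CPM against 41.3, 57.6, 57.7 and 55.5 CPM (1.98 ± 0.31, adjusted p = 1.15e-04). The sum of the list was 24.4 to 49.9 and 52.7 to 86.0 CPM, and most of the Siglec F-low sum was Il7r. Of the 13, 3 had a positive log2 fold change, and the median was -0.32. The T cell gene Cd3e was at 1.81, 4.43 and 4.74 CPM in Siglec F-high and 1.49, 3.99, 2.82 and 3.32 CPM in Siglec F-low libraries. Neutrophil markers summed to 74.4 to 86.1 and 99.4 to 104 CPM, with S100a8, S100a9 and Mmp8 called higher and Csf3r lower of 7 tested (none higher and 1 lower with all 24 libraries, and 1 higher without any one of Siglec F-high replicates 1, 2 and 4), while Ly6g and Mpo were at 0 in all 7 libraries. With 22 libraries 57.1% of the neutrophil markers tested were called, against 12.0% of all genes. S100a8 and Csf3r lost their calls without Siglec F-high replicate 2 (adjusted p = 0.0746 and 0.113).

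For dendritic cells Wdfy4, 1 of 13 markers, was called lower, though not with all 24 libraries, and the sum was 500 to 551 CPM in Siglec F-high against 396 to 454 CPM in Siglec F-low libraries. Fibroblast and endothelial markers summed to 184 to 200.1 and 260 to 297 CPM, and most of that sum was Vwf, the only one of 11 called (none with all 24 libraries or without Siglec F-high replicate 2), while the endothelial gene Cdh5 was at 0.961 to 1.51 CPM and 1.63 to 2.48 CPM. Epithelial markers overlapped in their sum, at 228 to 280.3 and 192 to 278 CPM, with Epcam, lower, the only call of 11. Most of that sum was Cdh1 and Epcam. Of the 11, 9 had a positive log2 fold change, and the median was 0.34. Sftpc was at 12, 8.33 and 7.84 CPM in Siglec F-high and 16.7, 40, 7.32 and 8.08 CPM in Siglec F-low libraries. Of 6 tested eosinophil markers only Siglecf was called, lower. The sum of that list was 480 to 528 CPM in Siglec F-high and 297 to 379 CPM in Siglec F-low libraries, most of it Siglecf. Ear6, of the family of Ear1, was at 26.6, 19.7 and 18.4 CPM and 62.9, 43.3, 42.5 and 44.1 CPM, and was not called. The part of such cells in the results above was not tested.

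The same sort had been made from old asbestos lungs, with no library shared. There 1578 genes (11.6%) were called, 858 higher (6.30%) and 720 lower (5.28%), with 579 called when all 24 libraries were used and 1024 without old Siglec F-high replicate 2. Of the 1638 genes called in young lungs, 1587 (96.9%) had the same sign in old lungs, against 69.1% of all genes tested, and 913 were called in the same direction, which was 55.7% of the young and 57.9% of the old calls. The median log2 fold change of the genes higher in young was 0.69 in young and 0.48 in old lungs, and of the genes lower in young -0.45 and -0.35. The genes were chosen on the young values, so their young and old medians are not a comparison of the ages. Across the 1638 genes, which are not independent, Pearson's r between the log2 fold changes was 0.89, given as a description. Arg1 was at 26, 31.5 and 27.5 CPM in old Siglec F-high and 352, 417, 565 and 499.9 CPM in old Siglec F-low libraries (4.02 ± 0.24). C1qb rose by 4.03 ± 0.21, Spp1 by 1.48 ± 0.22 and Mmp12 by 2.23 ± 0.54 in old lungs.

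**Figure D5:**
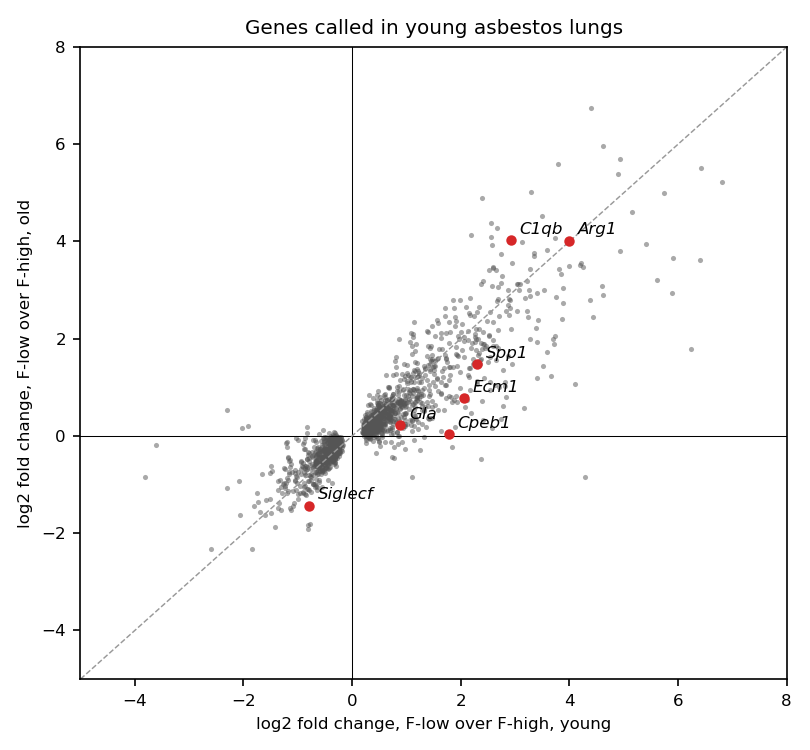
Log2 fold change of Siglec F-low over Siglec F-high in old against young asbestos lungs for the 1638 genes called in young lungs. The dashed line marks equal values; Arg1 lies on it at 4.0 and 4.02, and Ecm1 and Cpeb1 lie below it.

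The difference of the sort effect between the ages was tested for every gene, and 2 passed (0.0147%), with 870 at an unadjusted p under 0.05. Ecm1 was at 148, 112 and 115 CPM in old Siglec F-high and 209, 199.7, 219 and 231 CPM in old Siglec F-low libraries (0.78 ± 0.12), and its sort effect, old minus young, was -1.28 ± 0.18 (adjusted p = 0.00385). Cpeb1, an RNA-binding regulator of translation, went from 2.38, 3.85 and 3.82 CPM to 11.2, 9.79, 13.4 and 11.5 CPM in young lungs (1.77 ± 0.21, adjusted p = 2.88e-06). In old lungs it was at 20.2, 18.6 and 27.5 CPM and 23.3, 21.9, 21.9 and 23.3 CPM (0.04 ± 0.17, adjusted p = 0.938), with a difference between the ages of -1.74 ± 0.27 (adjusted p = 0.00945). With all 24 libraries no gene passed this test (650 at an unadjusted p under 0.05), and with DESeq2 29 did. Without young Siglec F-high replicate 1 or old Siglec F-low replicate 1 the count was 4, and without old Siglec F-high replicate 4 it was 1. The lysosomal list, with 26 genes called higher in young and 9 in old lungs, held no member whose difference between the ages passed.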

How the data were processed

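Sorted lung macrophages of C57BL/6J mice were profiled by RNA-seq of poly(A)-selected RNA from 30 ng of total RNA, per the labels' protocols. The deposited values are whole-number read counts per gene. The submitters' processing notes name bcl2fastq 2.19.1, FastQC, Trimmomatic 0.36, STAR 2.6.0, HTSeq 0.11.2 and build mm10; their settings, the annotation release and any use of strand are not given in the sources used here, so overlapping and antisense genes cannot be told apart. Libraries in the comparison held 11889517 to 18124526 counts.

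Groups were taken from the labels. The counts were tested with edgeR 4.0.16 in R 4.3.3 (TMM, filterByExpr with a minimum count of 10 and total of 15, quasi-likelihood F test, Benjamini-Hochberg adjustment over all 13629 genes, called under 0.05), in 1 fit of 6 groups and 22 libraries. The 2 libraries of poor quality were left out, and the fit with all 24 is given beside it. CPM are on TMM-scaled library sizes. Symbols matched 42462 of 43430 IDs, and IDs without a symbol held 0.117% to 0.196% of counts. Counts for 13327 genes were simulated with the spread estimated from these data, and the changed genes were drawn from those with a mean above 2 CPM. There the young comparison recovered 95% of genes changed by a log2 of 1 and 98% of those changed by 2, with 13 false among 206 calls. Recovery of genes with lower counts was not tested.

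The genes named were the 12 per direction of smallest p and the 6 per direction of largest change with at least 5 CPM, called in both fits without overlap in 8 libraries, a set of known genes of these cells, up to 4 called genes per direction of each list, genes that define a list, and up to 5 per direction that differed between the ages. Others, such as Igf1, Timp1, Timp2, Gpnmb, Hbegf, Mmp13, Ctsd, Atp6v1a, Hmgcs1 and Tgfb1, were chosen after their values were seen. A few genes that this rule names are not reported here. The comparison and all 43 gene lists were chosen with earlier results of these data known. Alternatives were DESeq2 1.42.0, limma 3.58.1, other scalings and filters, a replicate block and leaving out each library. Promoter windows came from RefSeq on GRCm38.p6.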

Additional observations from a re-analysis of the deposited data

Results flagged for a closer look

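Among the 4 Siglec F-low libraries, 1 library stood apart from the other 3 in 8 of 121 genes tested (a gap to the nearest over the critical value of Dixon's test), where chance gives about 1 in 20 groups; Siglec F-high, with 3 libraries, was not tested. Replicate 2 was the high one for Arg1 (224 CPM, others 138 to 144), Ccl24 (34.5, others 1.63 to 3.44), Retnla (80.2, others 16.6 to 25.9) and Bex1 (12.9, others 6.51 to 7.29), and the low one for Cx3cl1 (31.3, others 34.8 to 35.1). Replicate 1 was high for Fabp5 (482, others 392 to 403) and low for Csf1r (409, others 439 to 444) and Il7r (41.3, others 55.5 to 57.7). Ecm1 and Cpeb1 differed between the ages by the test of the difference itself, old minus young, at -1.28 and -1.74 on the log2 scale.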

How the results depend on the processing

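The count of 1638 young calls became 672 with all 24 libraries, 1004 with 23 (only the young poor library left out) and 181 in a fit of only the 8 libraries compared, an alternative chosen after seeing the data; DESeq2 gave 1918, limma voom 1646 and limma voom with quality weights on all 24 libraries 2309. Leaving out each library in turn gave 862 to 1666. For the old comparison all 24 libraries gave 579 of 1578, and leaving out each library 1024 to 1637. The difference between the ages, 2 genes, became 0 with all 24 libraries, 36 with no filter, 29 with DESeq2, 1 with limma voom, 15 with quality weights and 1 to 4 without each library. With an additive replicate block the counts were 1713 in young, 1395 in old and 0 for the difference (938 at an unadjusted p under 0.05). Same-numbered young libraries correlated in their deviations from the group means at 0.321, 0.0861 and 0.237 (replicates 1, 2 and 4), not all over 0.1, so the numbers were not taken as pairs, although each Siglec F-high library correlated best with its own number. Of 121 named genes, all kept their side of the threshold under DESeq2, its size factors in edgeR and the block; 25 lost it with all 24 libraries, 52 with only the 8 libraries, 4 under limma voom, and 11 of the 104 called without some 1 library. The named genes picked by smallest p or largest change had to be called with 22 and with 24 libraries. They could therefore not lose the call with all 24. Of all 1638 young calls, 617 passed with 22 and with 24 libraries with the same sign. The causes of these changes were not tested. With 3 and 4 libraries a group, genes near 1 CPM rest on few counts, and small differences (median SE 0.14) were often not detectable.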
